A study of Mus musculus with 12 samples.

Results

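Antibody-secreting cells that carried the same heavy-chain rearrangement were found in more than 1 organ of the same mouse pool for 356 of 3346 clones, 146 of 1385 in the female pool and 210 of 1961 in the male pool. These spanning clones were chosen by a measured value, the presence of the clone in the receptor tables of at least 2 tissues of a pool, and were set against the 2990 clones seen in 1 tissue only. A clone was defined by its heavy-chain V gene, J gene and CDR3 (the junction that contacts antigen, compared as translated), over cells with exactly 1 productive heavy-chain contig. The spanning clones made up 10.5% of the clones of the female pool and 10.7% of those of the male pool, but 38.4% and 52.5% of the cells, 4011 of 8415 in all. The counts depend on how presence and identity are defined. The number of spanning clones, female pool, was 105 where the same light chain was also required and 323 with presence taken from the unfiltered contig tables. The number of spanning clones, male pool, was 153 and 370 under these definitions. The light-chain definition also dropped cells without exactly 1 productive light-chain contig, so its lower counts do not measure differing light chains alone.

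The antibody-secreting cells came from Prdm1-eYFP mice of both sexes on the C57BL/6 background, 3 months old, and from their bone marrow, spleen or thymus. The fluorescent reporter of these mice follows Prdm1, a transcription factor of plasma cells. All groups carried the reporter and no treatment is named. Each sort pooled 3 mice and kept reporter-positive cells that were high for CD138, positive or negative for B220, and negative for IgD and CD90.2. For each sort, a 10x Genomics 5' assay gave 1 B cell receptor (VDJ) library and 1 library of gene expression, so that none of the 6 sorts was replicated. Whether 1 set of 3 mice supplied all tissues of a pool is not stated in the labels.

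The sex labels of the receptor and expression libraries were crossed. Each receptor library labelled male shared 49.9 to 100% of its barcodes with the expression library of its tissue labelled female and 1.36 to 1.91% with the one labelled male. Each labelled female shared 77.0 to 96.6% with the male expression library and 1.96 to 2.21% with the female one. Pools are named here by the label of the linked expression library, which the file names also follow, and no sex difference is drawn from them. The female thymus had the lowest share, 333 of 667 barcodes, and its receptor contigs were the shallowest. The median was 26 UMIs per heavy chain in spanning and 21 in single-tissue cells there, against 104 to 794 elsewhere. This median was higher in spanning than in single-tissue cells of every library, with 206 against 104 in male thymus. The part of receptor depth in the differences below was not tested. The receptor libraries held 586 to 2889 cells with 1 heavy chain. Of all 8415, 7767 were linked to an expression barcode and 7377 passed the filters on expression, which left 66 to 1515 cells in each of the 12 sums of spanning or single-tissue cells.

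A B cell clone descends from 1 cell whose V, D and J segments were joined once, so that the junction is a heritable tag. Antibody-secreting cells form from activated B cells in spleen and other lymphoid organs, may leave through the blood, and can persist for long in bone marrow. In germinal centres the V region also acquires point mutations, which descendants inherit, and the constant region can be switched from IgM to IgG or IgA without a change of the junction. Some heavy-chain junctions, in particular those of the B-1 lineage that arises early in life, form with few or no added bases and recur in different mice.

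The junctions of 5 clones are shown because their letters can be compared across tissues of a pool and across pools. They are read 5′ to 3′ on the coding strand from the deposited contigs, from the conserved cysteine codon to the conserved tryptophan codon, and capitals mark the positions at which the nucleotide variants of that clone differed. All V genes lie on chromosome 12 of GRCm38 (GENCODE vM21), on the minus strand.

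The IGHV8-8/IGHJ3 clone (V gene at chr12:115294062-115294504) was found in both pools. Its 3 most frequent variants translate alike but no variant was seen in both pools.
IGHV8-8 variant with 61 cells, male pool: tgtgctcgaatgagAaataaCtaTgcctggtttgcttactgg
IGHV8-8 variant with 32 cells, male pool: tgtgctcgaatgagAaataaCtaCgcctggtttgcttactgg
IGHV8-8 variant with 18 cells, female pool: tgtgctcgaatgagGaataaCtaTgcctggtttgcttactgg

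The male variants were each in all 3 tissues of the male pool (53, 5 and 3 cells of the first in bone marrow, spleen and thymus, and 23, 8 and 1 of the second). The female variant was in all 3 tissues of the female pool (13, 2 and 3 cells). The nucleotide letters therefore followed the pool and not the tissue.

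A pair of IGHV11-2/IGHJ1 clones (V gene at chr12:114048241-114048812) was instead written with the same letters in both pools.
IGHV11-2 first clone, leading variant, 38 cells: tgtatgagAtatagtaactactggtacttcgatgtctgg
IGHV11-2 second clone, leading variant, 35 cells: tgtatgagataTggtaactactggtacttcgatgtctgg

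The first clone had this variant in 17, 2 and 3 cells of female bone marrow, spleen and thymus and in 12, 2 and 2 cells of the male pool. The second had it in 15, 1 and 1 female cells and in 12, 4 and 2 male cells. In the female pool the first clone used the light chain IGKV14-126 with IGKJ2 in 19 of 22 cells, and the second IGKV14-126 with IGKJ4 in 13 of 18. IGHV11-2 paired with IGKV14-126 is a known receptor of B-1 cells against phosphatidylcholine. Every female cell of both clones had 0 mismatches to the germline V gene, and all with a constant gene call were IgM (20 of 20 and 18 of 18).

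The IGHV1-80/IGHJ3 clone (V gene at chr12:115912344-115912776) had the shortest junction of those named, 21 bases, and 8 nucleotide variants over the 34 female and 102 male cells.
IGHV1-80 variant with 64 cells, both pools: tgTgcaagAggGgcTtaCtgg
IGHV1-80 variant with 32 cells, both pools: tgTgcaagAggAgcTtaCtgg
IGHV1-80 variant with 20 cells, male pool: tgTgcaagAggTgcTtaCtgg
IGHV1-80 variant with 7 cells, female pool: tgTgcaagGggGgcTtaCtgg

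In the male pool its light chain was mixed: the leading one, IGKV4-55 with IGKJ4, was in 41 of 78 cells. Its cells carried 72 distinct V sequences among 102 cells, with a median of 5 mismatches. In the female pool 11 of 29 cells had the leading light chain. This clone, counted as 1 under the rule, thus held several light chains and junction variants.

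The largest clone of the male pool, IGHV9-3/IGHJ2 (V gene at chr12:114140692-114141122), had 987 cells and was named after its size was seen.
IGHV9-3 leading variant, 965 cells: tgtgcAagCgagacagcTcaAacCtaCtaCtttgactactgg

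Of its cells, 977 were in spleen and 10 in bone marrow, and all 10 of bone marrow had the leading variant. It paired with IGKV5-39 and IGKJ5 in 909 of 977 cells, was IgM in 944 of 962, and had a median of 0 mismatches. It was 977 of the 1602 spanning cells of the male spleen, so values that count cells in that library are largely values of this clone.

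Clone size is tied to the rule, since a clone of 1 cell cannot span, and is given as a description. Spanning clones had a median of 4 cells in both pools (quartiles 2 to 8 and 2 to 9), and reached 92 cells in the female and 987 in the male pool. Of the single-tissue clones, 988 of 1239 and 1373 of 1751 were single cells, and the largest had 24 and 88 cells. Of clones with exactly 2 cells, 21.4% spanned in the female pool (95% exact Clopper-Pearson interval 15.7 to 28.0%) and 19.5% in the male pool (15.0 to 24.7%). Of clones with 10 or more cells, 27 of 31 and 48 of 61 spanned, 87.1% and 78.7%. At the threshold of the rule, the clones just inside had 2 cells in 2 tissues (40 and 54 clones), and those just outside had 2 cells in 1 tissue (147 and 223).

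**Figure D1:**
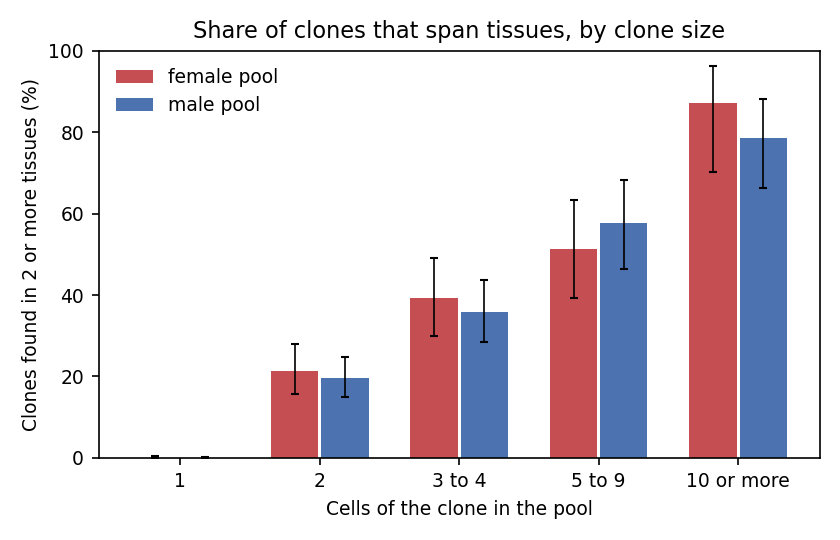
Percentage of clones found in 2 or more tissues (y) against the number of cells of the clone in its pool (x), for the female and male pools; bars start at 0 and error bars are 95% exact binomial intervals (counting error alone). The share rose from 0 for single cells, by construction, to 87.1% and 78.7% for clones of 10 or more cells.

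The most frequent combination was bone marrow with spleen, in 68 female and 95 male clones. All 3 tissues held 29 female and 57 male clones, with a median size of 11 cells in each pool. Bone marrow with thymus held 32 clones in each pool, and spleen with thymus 17 and 26. Among the clones of a library, the spanning share was 16.4% in female spleen and 15.3% in male spleen, 129 of 517 and 184 of 613 clones in female and male bone marrow, and 22.5% and 25.7% in female and male thymus. Among cells it was 28.3% in female thymus and 36.8% in female spleen and in male thymus, and 46.0 to 55.7% in the other 3 libraries.

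Pairs of libraries from the same pool shared 46 to 152 clones, and pairs from different pools 6 to 22. As a share of each list, the overlap was 6.60 to 24.8% in the 6 pairs within a pool and 0.771 to 4.26% in the 9 pairs between pools. The 2 ranges did not overlap. Barcodes shared by a pair of libraries numbered 0 to 11, and 1 of all these barcodes carried the same clone in both libraries (male bone marrow and spleen). Leaving out such cells left the number of spanning clones at 146 and 210.

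**Figure D2:**
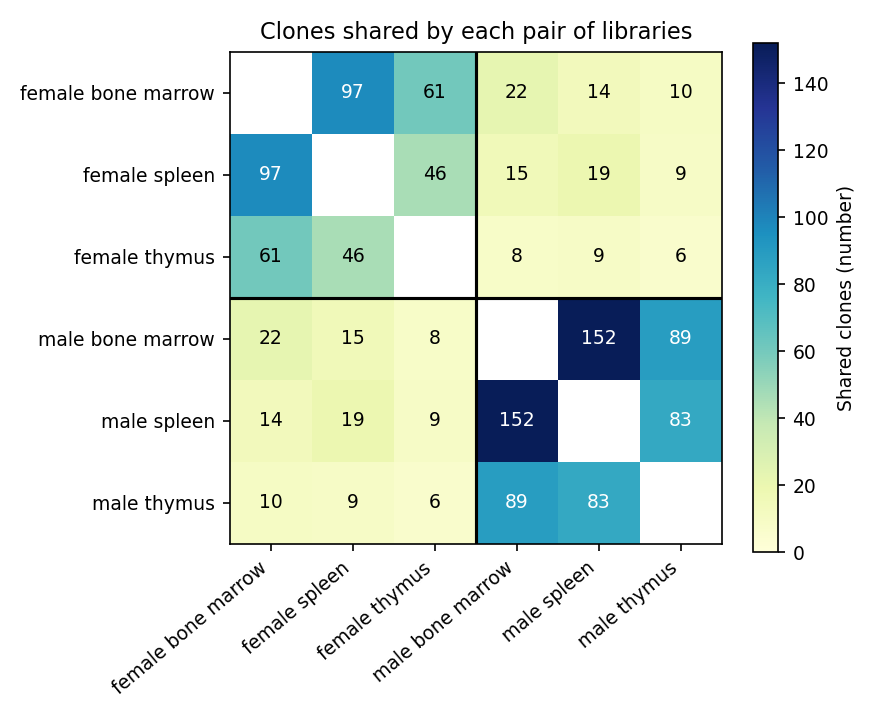
Number of clones (colour and printed value) shared by each pair of the 6 receptor libraries; black lines separate the female and male pools. Pairs within a pool share 46 to 152 clones and pairs between pools 6 to 22.

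In all, 36 clones were found in both pools, and 12 of them spanned tissues in both. Clones of both pools were 14 of 146 spanning clones in the female pool (9.59%, 95% exact interval 5.34 to 15.6%) and 18 of 210 in the male pool (8.57%, 5.16 to 13.2%). Among single-tissue clones of 2 or more cells they were 9 of 251 (3.59%) and 6 of 378 (1.59%). Recurrent clones are part of the spanning group.

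Junction nucleotides and light chains were compared between the tissues of a spanning clone. The rule did not use the light chain. It did fix the translated junction, so junction bases could differ only where the translation stayed the same. The nucleotide sequence of the junction that was most frequent in a tissue was the same in both members of 432 of 483 tissue pairs of a clone (89.4%). Between the 2 pools, it was the same in 19 of 33 clones (57.6%, 95% exact interval 39.2 to 74.5%). The leading light chain was the same in 250 of 357 tissue pairs (70.0%, 65.0 to 74.7%) and in 12 of 27 clones between pools (44.4%, 25.5 to 64.7%). The values between pools come from recurrent clones alone. For tissue pairs of those same recurrent clones within a pool, the light chain was the same in 18 of 32 (56.2%, 37.7 to 73.6%) and the junction nucleotides in 38 of 51 (74.5%, 60.4 to 85.7%), and these intervals overlap those between pools. When the cells of a clone within 1 library were split into 2 sets, the leading light chains matched in 304 of 455 single-tissue clones (66.8%) and in 201 of 268 entries of spanning clones. The light-chain value between tissues lay between these. For junction nucleotides the same splits matched in 592 of 614 (96.4%) single-tissue clones and 337 of 379 (88.9%) entries of spanning clones. Tissue pairs of 1 clone and clones of 1 pool are not independent, so these intervals cover counting error only.

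Point mutations of the V region were compared as well. Of 262 tissue pairs in which both tissues had a cell with at least 2 mismatches to the germline V gene, 113 (43.1%, 37.1 to 49.4%) held an identical mutated V sequence in both tissues. Between pools this was so for 0 of 14 clones, which allows a share of up to 23.2% by the exact interval. The share was 31 of 92 in the female and 82 of 170 in the male pool. With the cells of 1 library split into 2 sets, an identical mutated sequence was in both sets for 137 of 202 single-tissue clones (67.8%) and for 112 of 211 entries of spanning clones (53.1%).

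The 6 named clones of each pool, those in most tissues and then with most cells, were each in all 3 tissues, with 18 to 69 cells in the female and 51 to 102 in the male pool. IGHV1-26/IGHJ4 had 66 of its 69 cells in spleen, and IGHV1-82/IGHJ3 had 43 of 54 there. The other named clones of the rule except male IGHV1-80 had most cells in bone marrow, for example 44 of 58 in IGHV1-4/IGHJ2, 77 of 94 in male IGHV8-8/IGHJ3 and 46 of 58 in IGHV1-9/IGHJ4. Thymus held 1 to 10 cells of each. IGHV1-4/IGHJ2 was IgG2b in 58 of 58 cells, and so in all 3 tissues, and had the light chain IGKV2-137 with IGKJ2 in 54 of 57. IGHV1-26/IGHJ4 was mixed, with IgG2b in 32 of 69 cells. The other named clones were mostly IgM, such as IGHV1-9/IGHJ4 with 57 of 57 cells.

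**Figure D3:**
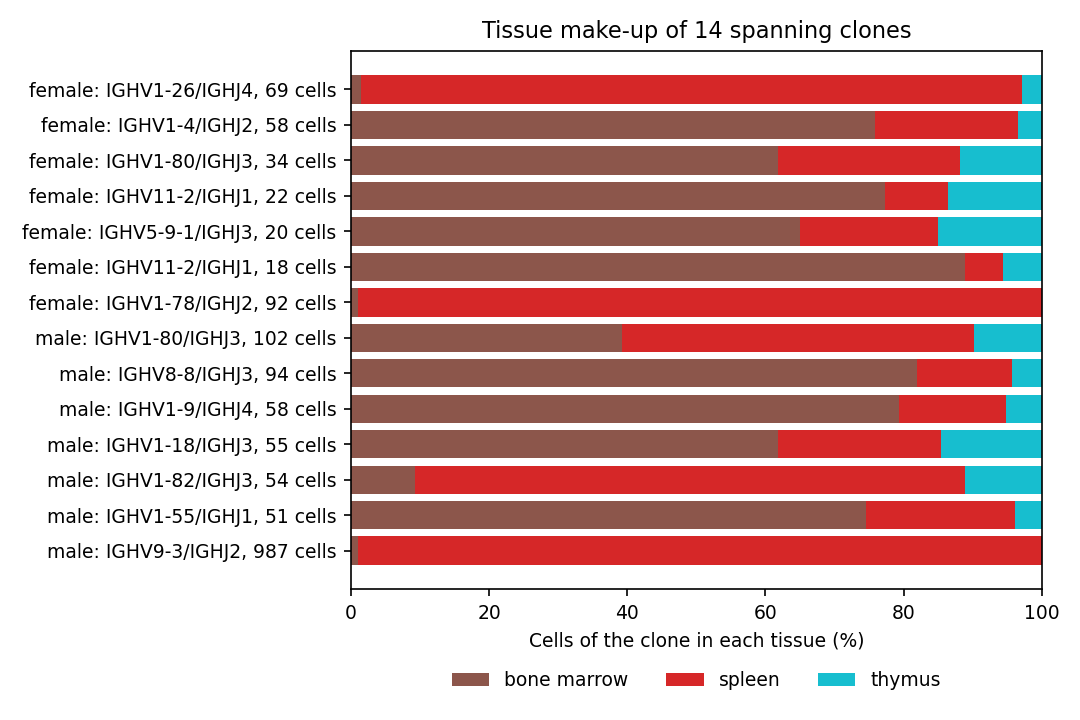
Share of the cells of a clone (x, percent) in bone marrow, spleen and thymus for 14 spanning clones (rows, with pool, V and J gene and number of cells): the 6 chosen by the rule in each pool and the largest clone of each pool. IGHV9-3/IGHJ2 and IGHV1-78/IGHJ2 were almost all spleen, with 977 of 987 and 91 of 92 cells there.

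Within each library, V regions of spanning clones differed more from germline than those of single-tissue clones. This measure was added after the contig tables were seen. It counts mismatches between the V region from framework 1 to framework 3 and the GENCODE transcript of the same V gene, averaged over the cells of a clone and then over clones. The mean was 2.58 ± 0.38 in spanning and 1.76 ± 0.39 in single-tissue clones (SD over 6 libraries), a difference of 0.81 ± 0.54 (SD). Spanning and single-tissue means were 2.48 and 2.24 in female bone marrow, 2.52 and 1.66 in female spleen, and 2.19 and 1.61 in female thymus. In the male pool they were 2.81 and 2.27 (bone marrow), 3.22 and 1.40 (spleen), and 2.25 and 1.41 (thymus). The spanning clones were thus higher in 6 of 6 libraries.

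The share of cells with 0 mismatches was 39.7% ± 2.5 in spanning clones against 57.8% ± 8.8 in single-tissue clones, lower in 6 of 6. For both measures the exact two-sided sign-flip permutation test gave p = 0.03125, the smallest that 6 libraries allow, and 0.083 after Benjamini-Hochberg adjustment over the 8 receptor measures compared, so neither passed the threshold of 0.05. Libraries of a pool share clones, so the test treats as independent what is in part the same clones.

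The comparison was repeated with clone size held closer. Against single-tissue clones of 2 or more cells, mismatches were higher by 0.80 ± 0.38 (SD), again in 6 of 6 libraries. Among clones of exactly 2 cells in a pool, spanning clones had a mean of 2.96 ± 3.07 mismatches (SD over 40 clones) and single-tissue clones 1.55 ± 2.52 (147) in the female pool. In the male pool the means were 3.39 ± 3.74 (54 clones) and 1.80 ± 2.72 (223). In clones of 5 to 9 cells of the female pool they were 2.07 and 2.18, so the order was not seen there. Restricted to IgM cells, spanning clones had 2.41 ± 0.41 and single-tissue clones 1.38 ± 0.38 mismatches, higher in 6 of 6 (exact p = 0.03125). When each cell counted once in place of each clone, the difference in V mismatches was 0.094, higher in 3 of 6 libraries, and that in the unmutated share was -3.56 percentage points. With junctions compared as nucleotides the difference in V mismatches was 0.55, higher in 5 of 6.

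**Figure D4:**
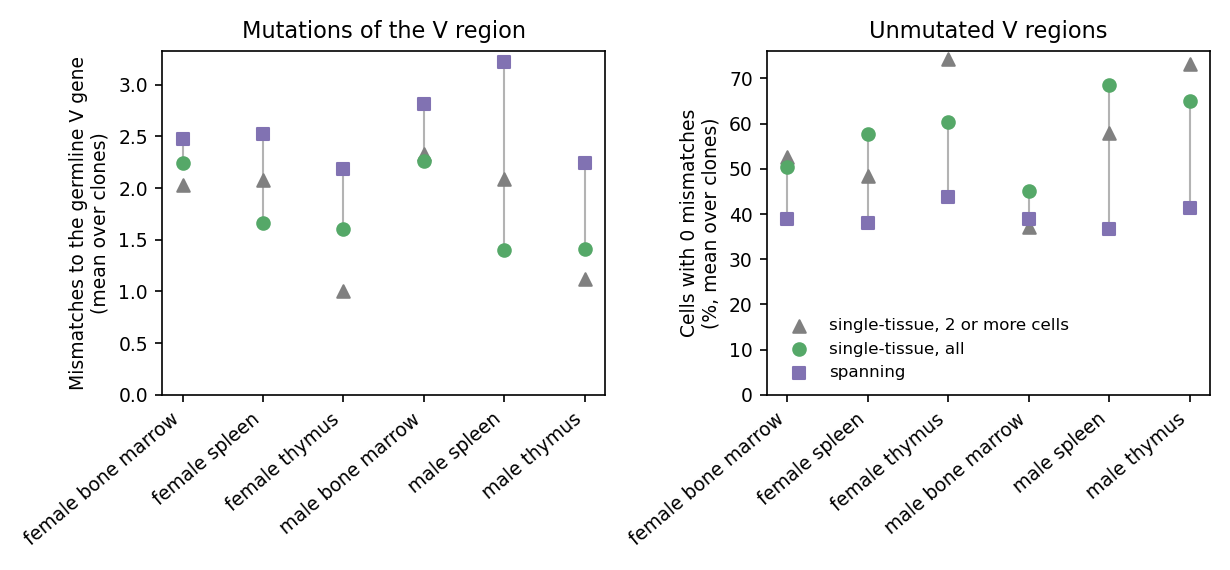
Left, mean mismatches per clone to the germline V gene (y); right, mean percentage of cells with 0 mismatches (y), in each of the 6 libraries (x), for spanning clones, all single-tissue clones and single-tissue clones of 2 or more cells. Spanning clones lie above both other groups in mismatches in all 6 libraries; in the right panel they lie below all single-tissue clones in all 6, and in male bone marrow they lie at 39.0% against 37.1% for single-tissue clones of 2 or more cells.

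The isotype of a clone was taken as the most frequent one of its cells in a library. IgM clones made up 78.0% ± 12.7 of spanning and 68.0% ± 12.3 of single-tissue clones (SD, 6 libraries), higher in 5 of 6 (exact sign-flip p = 0.0625, adjusted 0.125). The widest gap was in male thymus, at 92.7% against 63.4%, and female bone marrow went the other way, at 67.7% against 68.8%. IgG clones made up 10.8% ± 6.0 and 17.2% ± 11.1, lower in 4 of 6 libraries (exact p = 0.125, adjusted 0.17), and IgA clones 11.2% ± 7.9 and 14.6% ± 6.9 (exact p = 0.31, adjusted 0.31). None of the 3 passed. Single libraries moved these differences: the IgM share differed by 9.98 percentage points over 6 libraries and by 6.13 without male thymus. The IgA share differed by -3.43, by -1.32 without male thymus, by -2.15 without female thymus and by -5.76 without female spleen. The IgG share differed by -6.40 and by -4.22 without female spleen. More than 1 isotype was found in 38 of 140 spanning clones of the female pool (27.1%) and in 42 of 205 of the male pool (20.5%). Among single-tissue clones of 2 or more cells it was 32 of 234 (13.7%) and 36 of 352 (10.2%), but these had fewer cells in which a second isotype could be seen. The leading constant gene was the same in 433 of 482 tissue pairs of a spanning clone (89.8%, exact interval 86.8 to 92.4%). With the cells of 1 library split into 2 sets, it was the same in 518 of 556 single-tissue clones (93.2%, 90.7 to 95.1%). For entries of spanning clones split in this way it was the same in 363 of 379 (95.8%, 93.2 to 97.6%). The interval of these entries did not overlap that of tissue pairs, and all these intervals cover counting error only.

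V genes of the IGHV1 family, the largest mouse heavy-chain V family, were used by 60.1% ± 4.2 of spanning and 52.5% ± 4.7 of single-tissue clones (SD, 6 libraries), higher in 6 of 6 (exact p = 0.03125, adjusted 0.083). The difference in IGHV1 family share was 7.67 percentage points by clones and 2.30 when each cell counted once. Junctions were 42.0 ± 1.0 and 41.0 ± 1.0 bases long (SD), longer in 5 of 6 (exact p = 0.094, adjusted 0.15). Lambda light chains were in 10.5% ± 2.8 and 12.5% ± 4.1 (SD; exact p = 0.16, adjusted 0.18), lower in 5 of 6, with female bone marrow higher at 13.6% against 9.4%. None of these passed after adjustment.

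By single V genes, edgeR's quasi-likelihood test on clones per V gene and library called 19 of 70 (27.1%), 4 higher and 15 lower in spanning clones. A spanning clone enters 2 or 3 libraries, so these p-values are too small, and the split depended on the scaling: without the TMM factor 8 were called, 5 higher and 3 lower, as that factor moved the median V gene from -0.26 to -0.63 on the log2 scale. With 1 library left out, 13 were called without female thymus, 10 without female spleen, 8 without female bone marrow, 5 without male thymus, 4 without male bone marrow and none without male spleen.

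IGHV11-2, the V gene of the B-1 receptor above, was higher by 2.20 ± 0.57 (log2, SE; adjusted p = 0.0048, edgeR), with 23 of its 35 library entries in spanning clones, and higher in 6 of 6 libraries. These were 8 distinct spanning clones and 12 single-tissue clones, and without clones of both pools its log2 fold change was 0.69 (edgeR adjusted p = 0.70). IGHV1-50 was higher by 1.02 ± 0.32 (edgeR adjusted p = 0.022), with 19 distinct spanning and 58 single-tissue clones, and was the one V gene also called against single-tissue clones of 2 or more cells (adjusted p = 0.0034). With each cell counted once it had 0.54 (edgeR adjusted p = 0.73), and it did not pass without male bone marrow, male spleen or male thymus (for V gene IGHV1-50, edgeR adjusted p = 0.097, 0.20 and 0.095). IGHV8-8 and IGHV1-9 were higher by 0.60 ± 0.17 and 0.83 ± 0.33 (edgeR adjusted p = 0.044 and 0.047). Without male spleen V gene IGHV8-8 had 0.27 (edgeR adjusted p = 0.56) and V gene IGHV1-9 0.58 (0.44). V gene IGHV11-2 had 1.99 there and did not pass (0.082). All 4 were higher under both scalings. Without clones of both pools, IGHV8-8 had 0.38 and IGHV1-9 0.72, and these did not pass (edgeR adjusted p = 0.30 and 0.16). With each cell counted once, IGHV8-8 had 0.77 and IGHV1-9 0.37, and neither passed (edgeR adjusted p = 0.54 and 0.82).

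Of the V genes lower in spanning clones, IGHV6-3, IGHV1-52 and IGHV10-1 were called under both scalings. IGHV6-3 had 6 distinct spanning and 128 single-tissue clones (log2 fold change -1.42 ± 0.31, edgeR adjusted p = 0.0021), and without male spleen V gene IGHV6-3 had -1.02 (edgeR adjusted p = 0.14). With each cell counted once IGHV6-3 had -0.72, and against single-tissue clones of 2 or more cells -0.61. Neither passed (edgeR adjusted p = 0.57 and 0.68). IGHV10-1 had 1 and 59, and IGHV14-2, called with the TMM factor alone, 1 and 42. IGHV1-52 was in 0 spanning and 33 single-tissue clones, and IGHV14-3 in 0 and 24. The V genes with most entries were IGHV1-53, with 16 distinct spanning and 172 single-tissue clones, IGHV1-26, with 15 and 148, and IGHV8-8, with 27 and 107. IGHV1-53 and IGHV1-26 had log2 fold changes of -0.68 and -0.70 with the TMM factor, both called, and were not called without it.

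Gene expression outside immunoglobulin genes was not used by the rule. UMI counts were summed over the spanning and over the single-tissue cells of each library and compared within libraries. Spanning sums of a pool hold cells of the same clones, so the libraries are not fully independent here either. With edgeR's quasi-likelihood test, 87 of 10700 genes passed an adjusted p of 0.05 (0.813%), 44 higher (0.411%) and 43 lower (0.402%) in spanning cells. DESeq2 called 20. Without male spleen 40 genes were called, and without the pairing of the sums by library edgeR called 0 (70 at an unadjusted p under 0.05). Of the spanning droplets, 1 in each bone marrow library stood apart: these 2 held 93.2% and 93.6% of the neutrophil marker UMIs of their sums, and S100a8, S100a9, Camp, Ngp, Ltf and Lcn2 did not pass without them. In all, 13 calls were lost with those droplets. With the droplets left out, 79 genes passed, 32 higher and 47 lower, and 74 of the 87 were still called.

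Among the genes with the largest increases, Wipf3, a member of the WIP family of actin regulators, was higher by 1.20 ± 0.14 (log2, SE; edgeR adjusted p = 2.5e-07). In CPM its spanning and single-tissue sums held 29.5 and 19.4 in female bone marrow, 19.9 and 7.8 in female spleen, and 21.3 and 20.6 in female thymus. In the male pool they held 43.6 and 19.4 (bone marrow), 31.1 and 10.3 (spleen), and 16.9 and 6.6 (thymus). The spanning sum was higher in 6 of 6, by least in female thymus, where the sums held 3 and 6 UMIs.

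Pgam2, the muscle form of the glycolytic enzyme phosphoglycerate mutase, was higher by 0.93 ± 0.13 (log2, SE; edgeR adjusted p = 1.2e-05), in 6 of 6 libraries. Its spanning and single-tissue sums held 39.9 and 25.7 CPM in female bone marrow, 83.9 and 34.3 in female spleen and 14.2 and 0 in female thymus, the last from 2 and 0 UMIs. The male pool gave 45.7 and 20.002 CPM (bone marrow), 25.4 and 22.9 (spleen), and 67.7 and 21.9 (thymus). The gap was narrowest in male spleen, where the IGHV9-3 clone is most of the spanning sum. Aldh1a2, which makes retinoic acid, was higher by 0.95 ± 0.18 and Zeb2, a transcription factor, by 0.78 ± 0.15 (edgeR adjusted p = 0.0026 and 0.0035), in 6 and 5 of 6 libraries. Cdkn2a, a cell cycle inhibitor, was higher by 0.62 ± 0.16 and Haao, an enzyme of tryptophan breakdown, by 0.61 ± 0.12 (edgeR adjusted p = 0.049 and 0.0040). DESeq2 did not call Cdkn2a or Haao (adjusted p = 0.69 and 0.14), and without male spleen gene Cdkn2a had 0.39 and did not pass.

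With 1 cell per clone and library, the log2 fold change of Wipf3 was 0.62 ± 0.25 (edgeR adjusted p = 0.39). That of Pgam2 was also 0.62 (edgeR adjusted p = 0.11), so neither passed. This setting weighs large and small clones alike but also leaves fewer cells, for example 177 in place of 1515 spanning cells of male spleen. The SE of Wipf3 was 0.25 there, against 0.14 over all cells. In the same setting Aldh1a2 had 1.03 and Zeb2 0.86, as large as over all cells, and Cdkn2a had 0.21, and these did not pass (edgeR adjusted p = 0.10, 0.13 and 0.91). Against single-tissue clones of 2 or more cells, Wipf3 was higher by 0.99 and Pgam2 by 0.96 (edgeR adjusted p = 0.00015 and 0.00021). Aldh1a2 had 0.90, close to its 0.95 over all single-tissue clones, Zeb2 0.55, Haao 0.34 and Cdkn2a 0.34, and these did not pass (edgeR adjusted p = 0.16, 0.58, 0.86 and 1.0).

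Of genes lower in spanning cells, Ggh, the gamma-glutamyl hydrolase of folate metabolism, had the smallest p (edgeR adjusted p = 1.7e-08), and its log2 fold change was -0.91 ± 0.09 (SE). Its spanning and single-tissue sums held 69.9 and 87.9 CPM in female bone marrow, 97.8 and 186 in female spleen, and 28.4 and 6.88 in female thymus. In the male pool they held 65.1 and 134 CPM (bone marrow), 25.9 and 61.0 (spleen), and 19.5 and 36.2 (thymus). Ggh was thus lower in 5 of 6 libraries, the exception being female thymus, the library with fewest cells, where the sums held 4 and 2 UMIs.

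Bcl2l11, which encodes the pro-apoptotic protein BIM, was lower in 6 of 6 libraries, by a log2 value of -0.61 ± 0.08 (SE; edgeR adjusted p = 6.1e-06). In CPM the spanning and single-tissue values were 40.9 and 57.2, 65.2 and 97.6, and 35.5 and 41.3 in female bone marrow, spleen and thymus. They were 58.7 and 77.8, 50.4 and 95.8, and 49.5 and 61.4 in the male tissues in the same order. Basp1 was also lower in 6 of 6 (-0.78 ± 0.10, SE; edgeR adjusted p = 2.5e-06). Both were lower too against single-tissue clones of 2 or more cells, with -0.47 for Bcl2l11 and -0.61 for Basp1 (edgeR adjusted p = 0.0072 and 0.0025).

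Vpreb3, which is expressed in B cell precursors, differed by -1.22 ± 0.15 in log2 (SE; edgeR adjusted p = 1.5e-06), with 15.3 against 40.5 CPM in female bone marrow, 37.5 against 114 in female spleen and 7.30 against 20.1 in male spleen. Male bone marrow had 15.5 against 15.9 and male thymus 2.60 against 3.29, a narrower gap. It was listed at 0 in both sums of female thymus. Among IgM cells alone its log2 fold change was -0.19 ± 0.19 (SE; edgeR adjusted p = 0.92). Ebf1, a transcription factor of the B lineage, had -0.91 ± 0.16 (SE; edgeR adjusted p = 0.00078) and was lower in 5 of 6. Ms4a1, which encodes CD20, had a log2 fold change of -0.42 ± 0.08 (edgeR adjusted p = 0.00091) and was the 1 called of 5 tested B cell markers. Against single-tissue clones of 2 or more cells, Vpreb3, Ebf1 and Ms4a1 had -0.81, -0.40 and -0.22 and did not pass (edgeR adjusted p = 0.067, 1.0 and 0.96). DESeq2 did not call Vpreb3 or Ebf1 (adjusted p = 0.099 and 0.60), and gene Ebf1 had -0.48 without male spleen and did not pass. Summed B cell markers held 642 to 1082 CPM in spanning and 715 to 1112 in single-tissue cells, lower in 5 of 6 libraries. Their part in these differences was not tested.

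**Figure D5:**
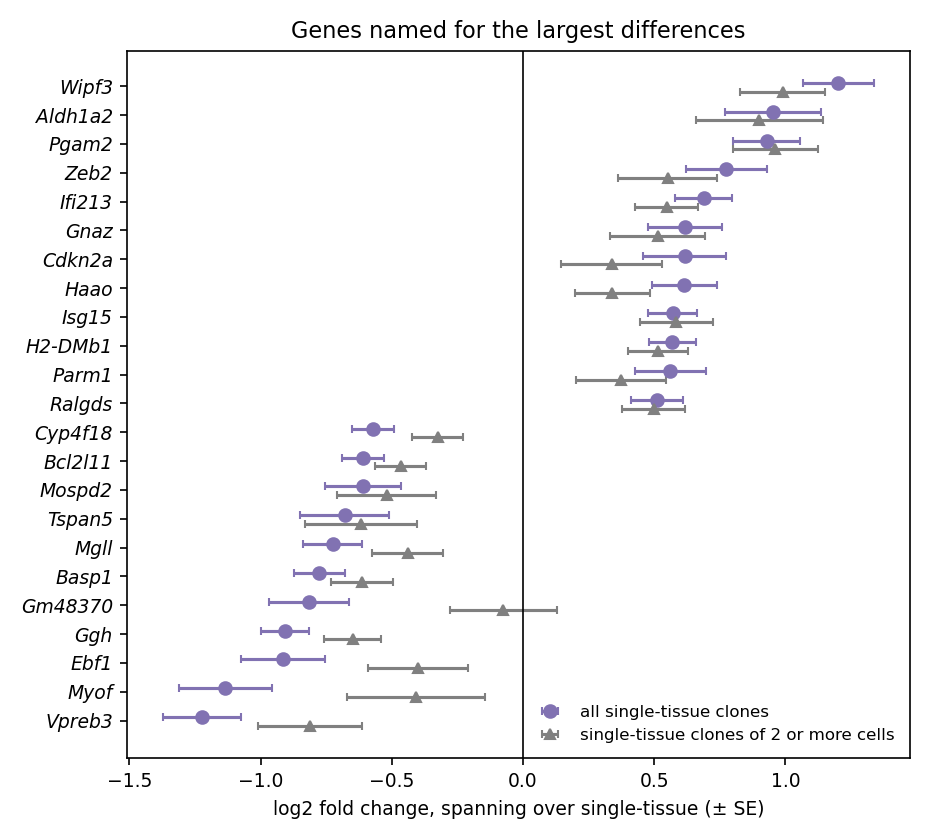
log2 fold change with its SE (x) of genes named for the largest differences (y), spanning over all single-tissue clones (circles) and over single-tissue clones of 2 or more cells (triangles), from fits over 6 libraries. Against the larger single-tissue clones Ebf1 moved from -0.91 to -0.40 and Wipf3 from 1.20 to 0.99.

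The genes below belong to lists chosen with earlier results of these data known, so each list is described by counts and a median, beside a median log2 fold change of 0.0033 over all 10700 genes tested. The antigen presentation list held genes of the MHC class II pathway, and also Cd83 and Cd86. Of its 10 genes, 3 rose and 7 did not pass, with a median of 0.27. H2-Aa, the alpha chain of I-A, was higher by 0.43 ± 0.07, H2-Eb1 by 0.28 ± 0.07 and H2-DMb1, which helps load peptide, by 0.57 ± 0.09 (SE; edgeR adjusted p = 0.00042, 0.026 and 0.00011). H2-Aa held 619 against 382 CPM in female bone marrow and 488 against 283 in male bone marrow, but 810 against 815 in female thymus. DESeq2 called H2-DMb1 (adjusted p = 0.0013) and not H2-Aa or H2-Eb1 (0.16 and 0.46). Cd74, the invariant chain, had 0.03 ± 0.07 (edgeR adjusted p = 0.98). H2-Aa and H2-DMb1 were also higher against single-tissue clones of 2 or more cells, with 0.46 and 0.52 (edgeR adjusted p = 0.0023 and 0.024).

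Of 23 interferon response genes, 2 rose, 1 fell and 20 did not pass, with a median of -0.15. Ifi213 rose by 0.69 ± 0.11 and Isg15 by 0.57 ± 0.09, while Ifi27l2a fell by 0.49 ± 0.10 (SE; edgeR adjusted p = 0.00013, 0.00022 and 0.0041). DESeq2 called Ifi213 (adjusted p = 0.0051) and not Isg15 or Ifi27l2a (0.16 and 0.24). The members thus moved in both directions, and 18 of 23 had a negative fold change.

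Of 15 surface and survival genes, 2 fell and none rose, with a median of -0.06. Cd93, a surface protein of bone marrow plasma cells, had -0.45 ± 0.07 (SE; edgeR adjusted p = 0.00014), with 62.9 against 91.8 CPM in female spleen and 90.2 against 140 in male spleen. Ly6c2, which encodes Ly6C, had -0.60 ± 0.11 (edgeR adjusted p = 0.0011, DESeq2 0.77). The 15 homing and egress genes tested had a median of -0.04, with 4 positive and 11 negative fold changes. Among them Itga4, an integrin chain used for retention in bone marrow, had -0.06 ± 0.05 (edgeR adjusted p = 0.88).

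Of 11 B-1 associated genes, Bhlhe41, a transcription factor needed for B-1a cells, rose by 0.32 ± 0.07 (SE; edgeR adjusted p = 0.020), higher in 6 of 6 libraries, and 10 did not pass. The 11 genes were split, with 6 positive and 5 negative fold changes and a median of 0.17. Of 8 genes of oxidative and amino acid metabolism, Slc3a2, the heavy chain of amino acid transporters, rose by 0.33 ± 0.07 (SE; edgeR adjusted p = 0.011), with 1656 CPM in spanning and 984 in single-tissue cells of male thymus but 1180 and 1169 in female bone marrow. These 8 genes had 7 positive and 1 negative fold changes and a median of 0.18, and 7 did not pass. Among IgM cells Slc3a2 had 0.23 and Bhlhe41 0.29 (edgeR adjusted p = 0.16 and 0.12), and DESeq2 called neither (adjusted p = 0.19 and 0.43). Without male spleen gene Bhlhe41 had 0.21 and did not pass. Against single-tissue clones of 2 or more cells, H2-Eb1, Isg15 and Slc3a2 did not pass, although their log2 fold changes of 0.25, 0.58 and 0.35 were about as large (edgeR adjusted p = 0.61, 0.054 and 0.10). Cd93, Ly6c2 and Bhlhe41 had -0.35, -0.39 and 0.22 there and Ifi27l2a -0.14, and these did not pass (edgeR adjusted p = 0.077, 0.58, 0.85 and 1.0).

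None of 12 plasma cell factors, 20 secretory genes of the endoplasmic reticulum or 10 immediate early genes passed with edgeR. Their median log2 fold changes were 0.04, 0.0048 and -0.02, in that order. Prdm1 had 0.18 ± 0.06 (SE; edgeR adjusted p = 0.13, DESeq2 0.022) and was higher in 6 of 6 libraries. Xbp1, which drives the secretory programme, had -0.10 ± 0.07, and Jchain, which links IgM and IgA, -0.21 ± 0.10 (SE; edgeR adjusted p = 0.71 and 0.51). Summed antibody-secreting cell markers lay at 42981 to 117926 CPM in spanning and 57676 to 116269 in single-tissue cells, and none of the 7 was called.

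None of 15 S phase genes and none of 15 genes of G2 and mitosis passed over all libraries, with 15 of 15 and 12 of 15 positive fold changes (median 0.17 and 0.08). Rrm2, at 0.54 ± 0.14 (SE; edgeR adjusted p = 0.056), passed without the 2 neutrophil-rich droplets (0.043) and among IgM cells (0.016). With 1 cell per clone and library, Rrm2 was higher by 1.11, Top2a by 0.67 and Mki67 by 0.51 (edgeR adjusted p = 1.5e-08, 1.1e-05 and 0.00011). Against single-tissue clones of 2 or more cells these 3 had 0.15, 0.02 and 0.06, and none passed (edgeR adjusted p = 1.0 for each). By tissue, Rrm2, a subunit of ribonucleotide reductase, had 190 CPM in spanning and 45.5 in single-tissue cells of female bone marrow, and 67.0 and 39.4 in male bone marrow. In spleen it had 145 and 145 in the female and 74.2 and 71.7 in the male pool. In thymus it had 161 and 117 in the male pool. The female thymus gave 21.3 and 34.4, from 3 and 10 UMIs, too few to read a direction. The test of the difference between tissues called 40 of 10700 genes in edgeR, and 30 of 10336 when the largest clone of each library was left out. It was not run without the 2 neutrophil-rich droplets, which lie in the bone marrow sums. Ly6k and Atp1b1 had the smallest p (edgeR adjusted p = 4.1e-09 and 7.2e-09). Rrm2 was among the called genes (edgeR adjusted p = 3.6e-08), as were Stmn1, Hmgb2, Cdk1 and Top2a, which are linked to cell division. So were Ly6c2, Slpi, Lag3, Tnfrsf17 and Cd52, and no set of genes was tested. The call of Hmgb2 over all libraries was among those lost without the 2 droplets (adjusted p = 0.046 with and 0.057 without them). Top2a was not called without the largest clones (adjusted p = 0.10).

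Summed S phase genes were 2.14 times as high in spanning as in single-tissue cells of female bone marrow and 1.18 times in male bone marrow. The ratio was 1.02 and 0.92 in female and male spleen, and 1.16 and 1.52 in female and male thymus. Without the IGHV9-3 clone the ratio of male spleen was 1.34, so its value rested on that clone. Ly6c2 differed between tissues as well (edgeR adjusted p = 3.1e-07), with 949 against 890 CPM in female and 525 against 516 in male bone marrow, and 303 against 669 in male spleen.

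Other values moved with the groups, and their part in the expression differences was not tested. Spanning cells had the higher median UMIs outside immunoglobulin genes in all 6 libraries, for example 1538 against 1179.5 in female thymus. In that library a median of 24.4% of the light-chain V UMIs of a spanning cell, and 48.9% of those of a single-tissue cell, came from V genes other than its leading one. In male spleen these shares were 49.5% and 45.2%, in male bone marrow 25.6% and 25.5%, and in male thymus 34.6% and 35.9%. In female bone marrow and spleen they were 16.3% and 20.1%, and 17.1% and 17.9%, so the direction was not the same in all libraries. The leading heavy-chain V gene was the same in both assays in 89.4% of spanning and 72.2% of single-tissue cells of female thymus. In male thymus it was the same in 91.3% and 84.4%. Spanning cells had the higher share in every library except male bone marrow, at 98.5% against 99.7%. Among cells with the same V gene in both assays, 88 genes passed, and 83 of the 87 were still called. T cell, erythroid, dendritic and stromal markers had no called gene, and of 8 macrophage markers Lyz2, which neutrophils also express, was called higher, with a log2 fold change of 2.52 and of 1.97 without the 2 neutrophil-rich droplets (edgeR adjusted p = 0.00030). Summed dendritic markers held 158 to 373 CPM in spanning and 180 to 425 in single-tissue cells, lower in 6 of 6 libraries. These markers include Bst2 and Ccr9, which are also in the interferon response and homing lists. Of the 6 dendritic markers 3 were tested, and Xcr1 was at 0, so the sum does not stand for dendritic cells alone. The T cell, erythroid and stromal sums went both ways. In a sum of cells, fewer cells that express a gene and less RNA per cell cannot be told apart.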

How the data were processed

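Single-cell gene expression and B cell receptor libraries were analysed, 6 of each. The deposited expression matrices hold counts of UMIs per gene and barcode, and the deposited contig tables list receptor contigs with their UMI counts; Cell Ranger 6.0.2 and mm10 (GRCm38) are named per the submitters' processing notes. Cells with exactly 1 productive heavy-chain contig were used, and no doublet caller was run. Receptor and expression barcodes were joined within a tissue. Kept cells had 200 genes or more, mitochondrial UMIs under 10%, and, immunoglobulin genes aside, 500 UMIs or more. The deposited counts were summed per library and group and tested with edgeR 4.0.16 (filterByExpr, TMM, quasi-likelihood, library as a block; R 4.3.3), with Benjamini-Hochberg adjustment at 0.05. DESeq2 1.42.0 was an alternative. Library is the pairing by design, since both sums of a library come from the same cell suspension. CPM values were computed from the same counts. Those of single genes used the TMM factors and the tested genes. Those of summed markers and lists used plain totals over all genes outside immunoglobulin genes, so these are not on the same scale. Receptor measures were compared by the exact sign-flip permutation test over 6 libraries (Python 3.11.15, NumPy 2.4.6, pandas 2.3.3, SciPy 1.17.1). The fits were tested on simulated data.

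V mismatches were counted against GENCODE vM21 transcripts, and 17 cells with 30 or more mismatches were left out. This measure was added after the files were seen. To split a clone within a library into 2 sets, its barcodes were sorted and divided at the middle. Members and gene lists were chosen with earlier results of these data known. Genes were named by rule: among called genes with a mean of at least 10 CPM and 1 direction in all libraries but at most 1, the 12 largest changes each way, plus from each list the called members (at most 4) and the 2 most abundant. Named clones were, per pool, the 6 in most tissues and then with most cells. Named V genes were those called, at most 5 each way, and the 3 with most clones; others were named after their values were seen. A gene that the rule names is not reported here. Each pool and tissue was 1 library of 3 pooled mice, so no p-value measures the spread between mice. For receptor measures, p-values measure the spread between libraries that in part share clones. The edgeR p-values also rest on modelled counts, and few cells can bring them low. S100a9 had an edgeR adjusted p of 5.1e-20 with 0 CPM in every spleen and thymus sum. Intervals cover counting error only. Expression libraries held 1367972 to 85749785 UMIs.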

Additional observations from a re-analysis of the deposited data

Results flagged for a closer look

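For 41 quantities, the values of the 6 libraries were checked for a library far from the other 5, and 5 were found. Nearly all of the 41 were differences between spanning and single-tissue cells or clones. In unselected values chance gives about 1 in 20. Most of these quantities were genes named for 1 direction in all libraries but at most 1, so that rate need not hold here. On the log2(CPM + 1) scale, Aldh1a2 differed by 2.87 in male thymus, against 0.66 to 1.21 in the others, from 11 UMIs in spanning and 1 in single-tissue cells. In female thymus, Haao differed by -1.35, Ralgds by -0.92, Ggh by 1.90 and Cd93 by 0.34, each against the direction of the other 5 libraries. These rest on few UMIs in spanning and single-tissue cells, 2 and 11 for Haao, 3 and 12 for Ralgds, 4 and 2 for Ggh and 16 and 26 for Cd93. Female thymus had the fewest cells, 66 spanning and 158 single-tissue.

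The difference between spanning and single-tissue cells itself differed between tissues for 6 named genes, by edgeR's quasi-likelihood test of the interaction. The adjusted p was 3.6e-08 for Rrm2, 2.2e-05 for Top2a, 0.025 for Mki67, 3.1e-07 for Ly6c2, 0.020 for Gm48370 and 0.025 for H2-Aa. With the largest clone of each library left out, Rrm2 and Ly6c2 passed (0.00015 and 3.2e-05), and Top2a, Mki67, Gm48370 and H2-Aa did not (0.10, 0.34, 0.067 and 0.10). Rrm2 and Top2a were higher in spanning cells in both bone marrow libraries. Ly6c2 was lower in both spleen and both thymus libraries. Gm48370 differed by -1.07 and -1.39 on the log2(CPM + 1) scale in female and male spleen, and by 0.19 and -0.24 in bone marrow. H2-Aa differed by 0.70 and 0.78 in bone marrow and by 0.59 and 0.08 in spleen.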

How the results depend on the processing

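With presence taken from the unfiltered contig tables, the number of spanning clones, female pool, was 323, and the number of spanning clones, male pool, 370. Of V genes, 10 were called with each cell counted once, 1 against single-tissue clones of 2 or more cells, 8 without clones of both pools and 8 without TMM. With each library left out, 0 to 13 were called, 0 without male spleen. Genes called numbered 20 with DESeq2, 164 with no filter on low counts, and 0 with no replicate block (70 at an unadjusted p under 0.05), that is, without the pairing of both sums of a library. They numbered 18 of 10070 (0.179%) against single-tissue clones of 2 or more cells and 21 when cells also had the same leading V gene in both assays, a setting added later. Among the 18 were S100a8, S100a9, Camp, Ngp, Wfdc21, Nkg7 and Lcn2, whose calls over all cells were lost without the 2 neutrophil-rich droplets. IgA cells alone gave 0 (4 libraries could be fitted; 122 at an unadjusted p under 0.05), cells with at least 10% ribosomal protein UMIs 14, and the female pool alone 18. With each library left out, 40 to 115 genes were called, 40 without male spleen. Directions turned for IGHV1-53 against clones of 2 or more cells (0.17), for IGHV1-26 there (0.23) and by cells (0.10), and among IgA cells for Isg15 (-0.58), Ebf1 (0.45), Bcl2l11 (0.031), Ifi27l2a (0.47) and Slc3a2 (-0.10). Over all called genes, 29 of 44 tested kept direction among IgA cells and 72 of 75 with 1 cell per clone and library. Of 788 alternatives of the 31 named genes that passed, 549 kept direction and passed, 234 kept direction and did not pass, and 5 reversed; 15 genes passed with every library left out in turn. The cause of these changes was not tested. The female thymus, with 66 spanning cells, limits what can be seen there.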
